A study of Homo sapiens with 12 samples.

Results

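The 10 genes described here encode E2F transcription factors (E2F1, E2F2, E2F3, E2F4, E2F7 and E2F8), the E2F partner TFDP1, and the pocket proteins (RB1, RBL1 and RBL2). They were chosen by name from the 58347 genes counted in A375 cells, and all 10 had enough counts to be tested. A375 is an established human melanoma cell line that carries a BRAF mutation. Polyadenylated RNA was sequenced from 12 samples, 3 replicates in each of 4 groups: cells given the DMSO vehicle, tretinoin, vemurafenib, or vemurafenib and tretinoin together (the combination). Exposure lasted 8 h, and the labels give 5 µM as the dose of all 4 groups, the vehicle among them. All groups shared 1 cell line, a serum-containing medium and the antibiotics in it, so the p-values describe the spread between these 12 samples and not the spread between melanomas. Vemurafenib blocks the mutant form of BRAF. Tretinoin is a retinoid and activates the retinoic acid receptors.

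E2F factors bind DNA together with a DP partner and control the genes that a cell needs to copy its DNA. E2F1, E2F2 and E2F3 are known as activators, E2F4 mainly represses in resting cells together with a pocket protein, and E2F7 and E2F8 repress without a DP partner. RB1 and its relatives RBL1 (p107) and RBL2 (p130) hold E2F factors inactive until kinases that pair with cyclins phosphorylate them, and cyclin D1 links this step to growth signals such as those of the BRAF, MEK and ERK kinases. RBL1 or RBL2 with E2F4 and the MuvB proteins form the DREAM complex, which silences cell cycle genes in resting cells.

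Total counts lay between 13510235 and 21534377 per sample. Tretinoin replicate 1, the sample with the lowest total, stood apart from its group: the chi-square per degree of freedom between its counts and those of the other tretinoin samples was 19.5 and 22.4, against 2.59 between those 2 and 2.74 to 9.14 within the other groups. For the E2F, DP and pocket protein genes described here, calls that were lost without it are given with and without it. Their other values that include it are given without it only in part. The interaction of the drugs in CCND2 and CDK6 is also given with and without it. The tretinoin results of all other genes and gene lists are given only with it, and how far they rest on it was not tested. The drug labels were checked on genes that respond to each drug. In vemurafenib relative to DMSO, the log2 fold changes of DUSP6, SPRY4, ETV4 and ETV5, all induced by ERK signalling, were -6.07, -6.55, -2.76 and -4.67. DHRS3, a retinoid-induced enzyme, changed by 2.91 in tretinoin relative to DMSO and by 2.54 in the combination relative to vemurafenib. In those same comparisons CYP26B1 changed by 0.58 and 0.80, RARB by 0.82 (adjusted p = 0.10) and 1.22, and CYP26A1, with 3 to 20 counts, by 0.51 (adjusted p = 0.63) and 1.20 (adjusted p = 0.23). These genes are not a check of tretinoin only, since vemurafenib relative to DMSO raised DHRS3 by 1.74 and RARB by 2.80 and lowered CYP26B1 (-0.42, adjusted p = 0.036). Several defining markers of the melanocyte lineage were at or near 0: SOX10 had 0 counts in every sample, TYR 0 to 1, DCT 0 to 18 and MLANA 1 to 19. MITF, the lineage's transcription factor, was present at 245 to 658 counts. Single genes of the marker lists differed between the groups. The summed normalized counts of 3 keratinocyte genes were 222 to 293 in DMSO, 166 to 267 in tretinoin, 526 to 579 in vemurafenib and 480 to 638 in the combination, with KRT1 at 0. Those of 4 blood and endothelial genes were 33.4 to 83.0, 70.3 to 115, 97.6 to 105 and 99.9 to 137, with CD3E at 0 to 9 counts, and those of the 6 melanocyte genes were 316 to 389, 272 to 355, 602 to 626 and 518 to 545. In vemurafenib relative to DMSO, the genes of these lists that rose were KRT14, PTPRC, VWF and MITF, and none fell. KRT5 (0.32, adjusted p = 0.44), PECAM1 (-0.83, adjusted p = 0.12) and PMEL (-0.52, adjusted p = 0.22, 8 to 25 counts) did not pass the test. PTPRC also rose in tretinoin relative to DMSO (1.46, adjusted p = 0.012). Their part in the results on E2F genes was not tested.

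Because several E2F genes are themselves controlled by E2F sites, the promoter letters are shown before the values. RefSeq promoter windows (GRCh38.p14, 250 bases before to 50 bases after a transcript start) were searched on both strands for 4 E2F words, TTTCGCGC, TTTGGCGC, TTTCCCGC and TTTGCCGC, none of which contains the CHR word TTTGAA. Of 35116 windows, 3.315% held an E2F word, as did 3.992% of the 27305 genes with a window. A window was given for 9 of the 10 genes, and 5 of the 9 held an E2F word. The stretches below run 5′ to 3′ on the gene's own strand, with the E2F words of either strand in capitals. E2F4, without a word, is shown for contrast.
E2F1, chr20:33686386-33686443, minus strand: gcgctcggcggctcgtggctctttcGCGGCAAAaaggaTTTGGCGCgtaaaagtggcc
E2F2, chr1:23531243-23531300, minus strand: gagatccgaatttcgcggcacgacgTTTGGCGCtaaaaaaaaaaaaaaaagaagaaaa
E2F3, chr6:20401801-20401858, plus strand: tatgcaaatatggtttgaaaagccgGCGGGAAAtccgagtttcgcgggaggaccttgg
TFDP1, chr13:113584608-113584665, plus strand: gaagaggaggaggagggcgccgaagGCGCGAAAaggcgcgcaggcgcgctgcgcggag
RBL1, chr20:37095998-37096048, minus strand: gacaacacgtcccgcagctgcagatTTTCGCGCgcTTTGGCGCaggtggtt
E2F4, chr16:67192065-67192154, plus strand: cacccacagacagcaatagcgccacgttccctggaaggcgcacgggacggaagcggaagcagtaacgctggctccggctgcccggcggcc
The words lay at -33 to -26 and -20 to -13 in E2F1, -42 to -35 in E2F2, -53 to -46 in E2F3, -120 to -113 in TFDP1, and -26 to -19 and -16 to -9 in RBL1, where -1 is the last base before the RefSeq start. E2F1 and RBL1 each held a pair of words. No word was found in the windows of E2F4, E2F7 and RBL2. The only window given for RB1 starts from a transcript inside the gene and held none either. A match is a run of letters and not a measured site, and a window without a match says only that these letters are not in it. The CHR word, an element bound by MuvB complexes, was found in 15.161% of windows and among these genes in E2F3 (-65 to -60) and RBL2 (25 to 30).

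Levels were compared between genes as RPKM, which divides by exon length. In DMSO the order ran from TFDP1 at 130 ± 0.826 RPKM (SD, n = 3) through E2F4 at 75.1 ± 1.53 and E2F1 at 47.9 ± 1.17 down to E2F8 at 2.76 ± 0.660. The DP partner and the repressor-type E2F4 were thus the most abundant transcripts, followed by E2F1. Between E2F1 and E2F8 stood RB1 (11 ± 0.692), E2F3 (8.79 ± 0.573), RBL1 (6.08 ± 0.867), E2F7 (5.46 ± 0.515), E2F2 (5.27 ± 0.317) and RBL2 (3.73 ± 0.287). The replicate ranges of the neighbours RBL1 and E2F7, and of E2F7 and E2F2, overlapped, and those of the other neighbours did not. The first 4 places were the same in all 4 groups. In vemurafenib, E2F3 had dropped to 4.91 ± 0.278 RPKM, next to RBL1 at 5.00 ± 0.623 and RBL2 at 4.59 ± 0.403, and the ranges of these neighbours overlapped.

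**Figure D1:**
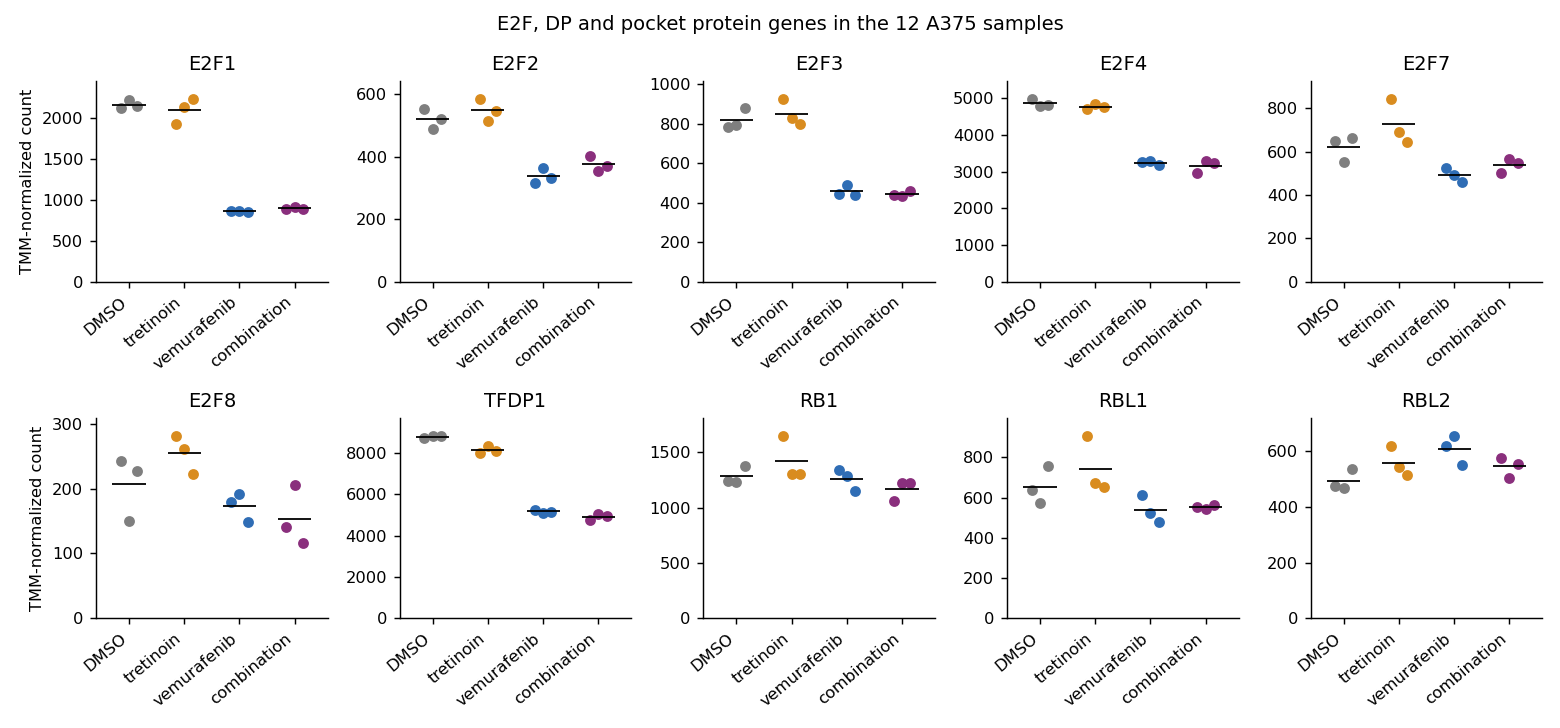
TMM-normalized counts (vertical axes, each starting at 0) of the 10 genes in the 12 samples, by treatment. Points are replicates and lines are group means of 3. E2F1, E2F2, E2F3, E2F4 and TFDP1 are lower in all 6 samples that received vemurafenib than in all 6 that did not. For the other genes some samples with vemurafenib lie within the range of those without it.

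Vemurafenib alone lowered 6 of the 10 genes and raised 1, by the quasi-likelihood test of edgeR, Benjamini-Hochberg adjusted over 16740 genes (threshold 0.05). Across all genes tested, 26.3% fell and 26.4% rose. The combination lowered 5 genes (8 without DMSO replicate 2) and raised 0 relative to the same DMSO samples, where 26.5% of all genes fell and 27.1% rose. The median log2 fold change of the 10 genes was -0.46 for vemurafenib and -0.45 for the combination, against 0.02 and 0.03 over all genes. Since these are bulk samples, fewer cells in the phase that makes a transcript and less of it per cell cannot be told apart.

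E2F1 (ENSG00000101412.12, GRCh38 chr20:33675683-33686404), the activator best known for driving entry into S phase, fell most of the 10 genes. Its normalized counts, scaled to the mean library, were 2125, 2228 and 2152 in DMSO, 1929, 2138 and 2235 in tretinoin, 865, 869 and 859 in vemurafenib, and 891, 917 and 897 in the combination. All 6 samples with vemurafenib were below all 6 without it, while DMSO and tretinoin overlapped. E2F1 was 2.51-fold lower in vemurafenib than in DMSO (log2 fold change -1.33 ± 0.07 SE, adjusted p = 3.2e-11) and 2.40-fold lower in the combination (-1.27 ± 0.07, adjusted p = 4.8e-11).

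E2F3 (ENSG00000112242.14, GRCh38 chr6:20401906-20493715), an activator needed for proliferation in many cell types, had the next largest fall of the 10 genes. It had 785, 795 and 882 normalized counts in DMSO, 925, 829 and 799 in tretinoin, 445, 488 and 441 in vemurafenib, and 441, 436 and 462 in the combination. The vemurafenib and combination samples overlapped each other and lay well below the rest. The log2 fold change was -0.84 ± 0.08 (SE, adjusted p = 1.3e-07) in vemurafenib and -0.88 ± 0.08 (adjusted p = 7.1e-08) in the combination, both relative to DMSO. E2F2 (ENSG00000007968.6, GRCh38 chr1:23506430-23531220), the third activator, had 552, 489 and 519 normalized counts in DMSO, 583, 515 and 545 in tretinoin, 315, 363 and 332 in vemurafenib, and 402, 354 and 369 in the combination. Its vemurafenib and combination values overlapped and stayed under every DMSO value. E2F2 fell by 0.62 ± 0.09 on the log2 scale in vemurafenib (adjusted p = 1.3e-05) and by 0.47 ± 0.09 in the combination (adjusted p = 1.9e-04). With total counts as the only scaling, the fall in the combination was -0.31 (adjusted p = 0.013).

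TFDP1 (ENSG00000198176.12, GRCh38 chr13:113584721-113641470), which encodes the DP1 partner of E2F1 to E2F6, had tight replicates. Its normalized counts were 8718, 8823 and 8803 in DMSO, 7996, 8322 and 8114 in tretinoin, 5259, 5097 and 5161 in vemurafenib, and 4759, 5033 and 4938 in the combination. The 4 groups did not overlap. TFDP1 was 1.70-fold lower in vemurafenib (log2 fold change -0.76 ± 0.06 SE, adjusted p = 9.9e-09) and 1.79-fold lower in the combination (-0.84 ± 0.06, adjusted p = 2.8e-09) than in DMSO. The difference of -0.11 ± 0.06 between tretinoin and DMSO did not pass the test (adjusted p = 0.29), nor did that of -0.08 ± 0.06 between the combination and vemurafenib (adjusted p = 0.67).

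E2F4 (ENSG00000205250.8, GRCh38 chr16:67192169-67198918), the E2F of the DREAM complex, fell with vemurafenib and with the combination. Normalized counts were 4973, 4785 and 4825 in DMSO, 4711, 4841 and 4761 in tretinoin, 3259, 3286 and 3173 in vemurafenib, and 2967, 3284 and 3225 in the combination. The 2 groups with vemurafenib overlapped each other but not the 2 groups without it. Against DMSO, the log2 fold change of E2F4 was -0.59 ± 0.06 (SE, adjusted p = 4.2e-07) in vemurafenib and -0.62 ± 0.06 (adjusted p = 1.9e-07) in the combination, and the combination differed from vemurafenib by -0.04 (95% CI -0.17 to 0.09).

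The atypical repressors E2F7 and E2F8 moved less, and their replicates were further apart. E2F7 (ENSG00000165891.15, GRCh38 chr12:77021247-77065580) had 649, 554 and 662 normalized counts in DMSO, 843, 693 and 647 in tretinoin, 524, 495 and 463 in vemurafenib, and 504, 567 and 549.8 in the combination. Every vemurafenib sample was below every DMSO sample, and the combination reached above DMSO replicate 2, the lowest of its group. E2F7 fell by 0.33 ± 0.10 on the log2 scale in vemurafenib (adjusted p = 0.010), a call that was lost with total counts as the only scaling (-0.14, adjusted p = 0.31). In the combination the log2 fold change was -0.20 ± 0.10 (adjusted p = 0.095), or -0.28 (adjusted p = 0.037) without DMSO replicate 2. E2F8 (ENSG00000129173.12, GRCh38 chr11:19224063-19241620), the gene with the fewest counts of the 10, had 242, 150.1 and 227 normalized counts in DMSO, 281, 260.5 and 222 in tretinoin, 179, 191 and 149 in vemurafenib, and 141, 205 and 115 in the combination. DMSO replicate 2 lay among the vemurafenib samples. The log2 fold change of E2F8 was -0.25 ± 0.19 (adjusted p = 0.28) in vemurafenib and -0.43 ± 0.19 (adjusted p = 0.069) in the combination, relative to DMSO. The latter reached -0.61 (adjusted p = 0.014) without DMSO replicate 2, -0.70 (adjusted p = 0.0057) without combination replicate 2, and an adjusted p of 0.0070 when genes with few counts were kept in the test.

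Of the pocket protein genes, 1 passed the test in vemurafenib and 0 in the combination relative to DMSO. Over all genes, 26.4% rose and 26.3% fell in vemurafenib, and 27.1% rose and 26.5% fell in the combination. The pocket protein genes are too few to compare with these shares. RB1 (ENSG00000139687.13, GRCh38 chr13:48303726-48599436), the retinoblastoma tumour suppressor, had 1238, 1233 and 1375 normalized counts in DMSO, 1647, 1300.2 and 1307 in tretinoin, 1341, 1281 and 1149 in vemurafenib, and 1061, 1221 and 1226 in the combination. DMSO and vemurafenib overlapped, and tretinoin replicate 1 stood above all other samples. Against DMSO, RB1 had a log2 fold change of -0.03 in vemurafenib (95% CI -0.23 to 0.17, adjusted p = 0.82) and -0.13 in the combination (95% CI -0.33 to 0.07, adjusted p = 0.25). With total counts as the only scaling the signs turned, to 0.17 and 0.03.

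RBL1 (ENSG00000080839.11, GRCh38 chr20:36996349-37095995), the pocket protein made mainly in cycling cells, had 636, 571 and 755 normalized counts in DMSO, 906, 672 and 652 in tretinoin, 611, 525 and 479 in vemurafenib, and 555, 542 and 561 in the combination. Its DMSO and vemurafenib samples overlapped, and the combination lay just under DMSO replicate 2. The log2 fold change of -0.28 ± 0.12 (SE) in vemurafenib missed the threshold (adjusted p = 0.065), as did that of -0.25 ± 0.12 in the combination (adjusted p = 0.10). Without DMSO replicate 2 both passed, at -0.37 (adjusted p = 0.029) and -0.33 (adjusted p = 0.045). The vemurafenib difference also passed without vemurafenib replicate 1 (-0.39, adjusted p = 0.028) and with the low-count genes kept (adjusted p = 0.015). With only the groups compared in the fit, the vemurafenib difference (adjusted p = 0.027) and the combination difference (-0.22, adjusted p = 0.048) both passed.

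RBL2 (ENSG00000103479.15, GRCh38 chr16:53433977-53491649), the pocket protein that accumulates in resting cells, was the 1 gene of the 10 that rose with vemurafenib. It had 474, 469 and 537 normalized counts in DMSO, 620.0, 542 and 516 in tretinoin, 618, 655 and 549 in vemurafenib, and 577, 505 and 555 in the combination. The vemurafenib samples were all above the DMSO samples, with a gap of few counts between vemurafenib replicate 3 and DMSO replicate 3. RBL2 was 1.23-fold higher in vemurafenib than in DMSO (log2 fold change 0.30 ± 0.09 SE, adjusted p = 0.013). The call was lost without DMSO replicate 2 (0.26, adjusted p = 0.051) or vemurafenib replicate 2 (0.24, adjusted p = 0.075), and with total counts as the only scaling the change was 0.49 (adjusted p = 0.000715). In the combination the log2 fold change was 0.14 ± 0.09 (adjusted p = 0.21), or 0.31 (adjusted p = 0.020) with total counts only. The counting ignored strand, and 9.8% and 8.3% of the RBL2 exon bases lie over exons of AC007342.6 and AKTIP on the opposite strand, so reads there could not be assigned. For RBL1 the share was 3.5% (AL136172.1) and for E2F8 0.2% (AC009652.2).

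Tretinoin alone called none of the 10 genes relative to DMSO, against 3.48% of all genes higher and 2.2% lower. The count was 0 with edgeR and 0 with DESeq2, and with either tool 1 gene had an unadjusted p under 0.05. With edgeR that gene was E2F7, with a log2 fold change of 0.22 (95% CI 0.01 to 0.43, adjusted p = 0.19), and with DESeq2 it was TFDP1 (adjusted p = 0.11). Of the 10 genes 7 had positive values. Tretinoin replicate 1 was the highest tretinoin sample of E2F2, E2F3, E2F7, E2F8, RB1, RBL1 and RBL2 and the lowest of E2F1, E2F4 and TFDP1. Without it the value of E2F7 was 0.10 and that of RBL1 moved from 0.18 to 0.01. RB1 moved from 0.14 to 0.02 and RBL2 from 0.18 to 0.10. The signs of E2F3 (0.048 to -0.015) and E2F1 (-0.045 to 0.011) turned.

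**Figure D2:**
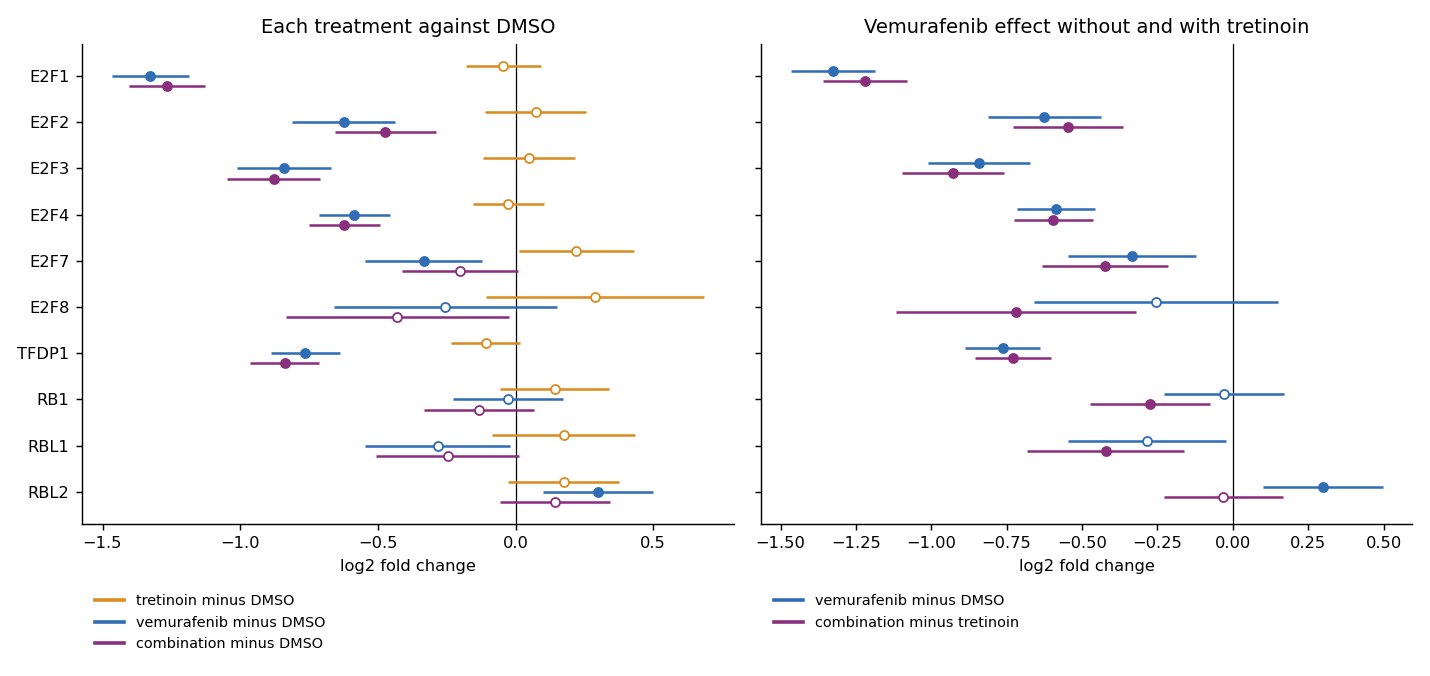
Log2 fold changes (horizontal axes) of the 10 genes with 95% confidence intervals as bars, for each treatment minus DMSO on the left and for vemurafenib without and with tretinoin on the right. Filled points passed the adjusted p threshold of 0.05 and open points did not. E2F1 lies furthest to the left, at -1.33 in vemurafenib and -1.27 in the combination, and RBL2 in vemurafenib is the 1 filled point to the right of 0.

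Adding tretinoin to vemurafenib changed none of the 10 genes detectably. In the combination relative to vemurafenib, edgeR and DESeq2 each called 0 of 10, and 0 had an unadjusted p under 0.05, while 2.27% of all genes rose and 2.2% fell. The intervals set how large a difference could have been missed. For E2F1 the difference was 0.06 (95% CI -0.08 to 0.20), for TFDP1 -0.08 (95% CI -0.20 to 0.05), and for E2F8 -0.17 (95% CI -0.58 to 0.23). The combination E2F1 samples were nevertheless all above the vemurafenib samples, by a margin smaller than the test resolves (adjusted p = 0.80).

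The combination relative to tretinoin gave the broadest result, with 9 of the 10 genes lower and 0 higher, where 25% of all genes fell and 24.1% rose. E2F1 changed by -1.22, E2F3 by -0.93, TFDP1 by -0.73, E2F8 by -0.72, E2F4 by -0.59, E2F2 by -0.55, and E2F7 and RBL1 both by -0.42 on the log2 scale, with adjusted p-values from 8.8e-11 for E2F1 to 0.0087 for RBL1. RB1 changed by -0.27 ± 0.09 (SE, adjusted p = 0.022). RBL2, at -0.03 (adjusted p = 0.80), was the gene that did not pass. Part of this result rests on tretinoin replicate 1. Without it RBL1 changed by -0.26 (adjusted p = 0.038) and RB1 by -0.16 (adjusted p = 0.098). The RB1 call was also lost without combination replicate 1 (-0.21, adjusted p = 0.11), with only the groups compared in the fit (-0.26, adjusted p = 0.059) and with total counts as the only scaling (-0.19, adjusted p = 0.14). The interaction of the drugs, which asks whether the effect of tretinoin differs with and without vemurafenib, called 0 of the 10 genes with edgeR and 0 with DESeq2, and 1 gene had an unadjusted p under 0.05 with each. Across all genes 0.382% were higher and 0.424% lower for this term. RBL2 was that 1 gene, at -0.33 (95% CI -0.61 to -0.05, adjusted p = 0.26), and E2F8 had the largest value, -0.46 (95% CI -1.03 to 0.10).

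The unequal falls changed the makeup of the E2F transcripts. E2F1, E2F2 and E2F3 together held 37.9%, 39.9% and 39.1% of the summed RPKM of E2F1 to E2F8 in the DMSO replicates, 37.4%, 38.3% and 39.7% in tretinoin, 28.8%, 29.4% and 29.7% in vemurafenib, and 31.9%, 29.7% and 30.8% in the combination. The 6 samples with vemurafenib were below the 6 without it. The mean share changed by -9.68 percentage points in vemurafenib (29.3% ± 0.463, SD, n = 3) relative to DMSO (39.0% ± 0.988, SD, n = 3; two-sided exact permutation p = 0.1) and by -8.20 points in the combination (30.8% ± 1.08, SD, n = 3; exact permutation p = 0.1), and 0.1 is the smallest p that 3 samples against 3 can give. By this test tretinoin and DMSO differed by -0.53 points (exact permutation p = 0.7) and the combination and vemurafenib by 1.47 points (exact permutation p = 0.1). E2F1 alone went from 30.2% in DMSO to 20.4% in vemurafenib, while E2F4 went from 47.2% to 53.5%. E2F2 and E2F3 kept similar shares, 3.31% and 5.53% in DMSO against 3.65% and 5.24% in vemurafenib.

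**Figure D3:**
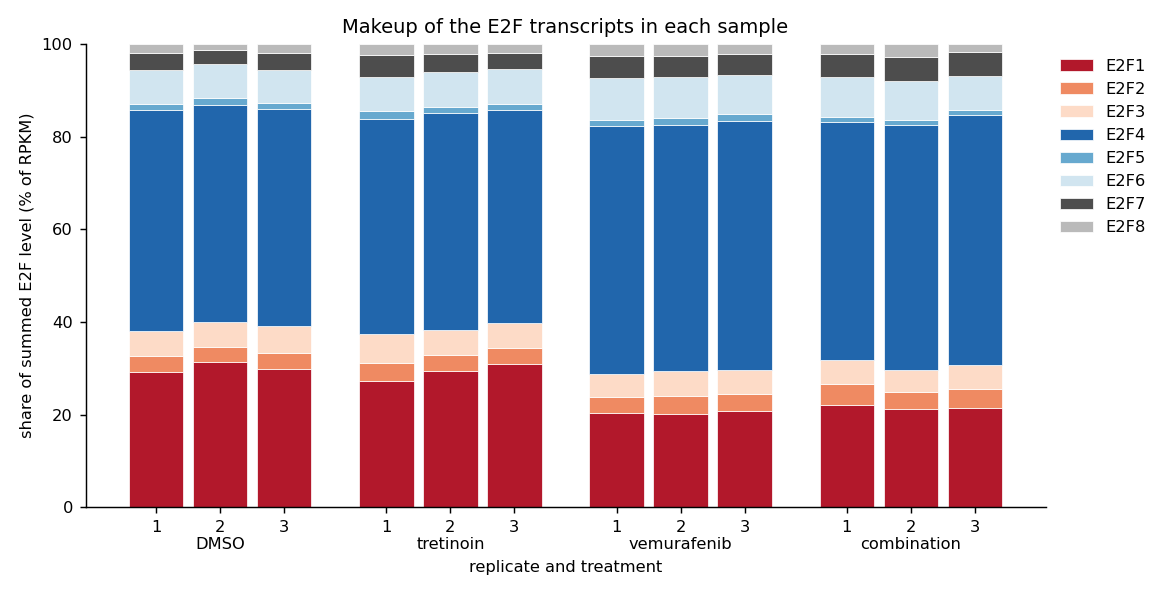
Share of the summed E2F1 to E2F8 level (vertical axis, percent of RPKM) held by each E2F gene in each of the 12 samples, as stacked bars. The E2F1 segment at the base is 27.3% to 31.3% of the bar in the 6 samples without vemurafenib and 20.1% to 22% in the 6 with it, and E2F4 takes up the widest segment in every sample.

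The remaining genes of the family were read in the same fit. E2F5 and E2F6, repressor-type E2F genes, fell in vemurafenib (log2 fold changes of -0.74 and -0.50 relative to DMSO) and in the combination (-1.04 and -0.62). TFDP2, the other DP gene, rose by 0.23 in vemurafenib (adjusted p = 0.015), opposite to TFDP1, and its value of 0.17 in the combination missed the threshold (adjusted p = 0.064). Tretinoin called 0 of these 3 genes with edgeR, with 0 at an unadjusted p under 0.05. Over all genes, 3.48% rose and 2.2% fell in tretinoin, 26.4% and 26.3% in vemurafenib, and 27.1% and 26.5% in the combination.

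Upstream of the pocket proteins, 14 of 15 genes for cyclins, kinases and their inhibitors could be tested, and CDKN2B, with 0 to 2 counts, could not. Relative to DMSO, 5 rose and 7 fell in vemurafenib, and 5 rose and 7 fell in the combination. Over all genes tested, 26.4% rose and 26.3% fell in vemurafenib, and 27.1% rose and 26.5% fell in the combination. CCND1, which encodes cyclin D1, fell by 4.39 ± 0.11 on the log2 scale in vemurafenib (adjusted p = 3.0e-15) and by 4.23 ± 0.11 in the combination (adjusted p = 3.0e-15), the largest fall on this list. The cyclin E genes, whose kinase completes RB1 phosphorylation, fell as well: CCNE1 by 1.19 and 1.16, and CCNE2 by 0.99 and 0.80. The CDK inhibitors CDKN1A (p21), CDKN1B (p27) and CDKN1C (p57) rose by 0.53, 0.60 and 2.17 in vemurafenib and by 0.33, 0.45 and 1.20 in the combination. The inhibitors did not all rise. CDKN2C rose by 1.09 and 1.06, but CDKN2D fell by 0.89 (adjusted p = 3.8e-05) and 0.78 (adjusted p = 1.3e-04). CDKN2A passed the test in neither comparison (adjusted p = 0.34 and 0.98). CDKN1C was the 1 gene of the list that differed between the combination and vemurafenib (-0.98 ± 0.11 SE, adjusted p = 1.2e-05). CCND2, which encodes another D-type cyclin, rose by 2.72 and 2.83 from few counts (9 to 126 per sample). Tretinoin raised 2 and lowered 4 of the 14 genes, where 3.48% of all genes rose and 2.2% fell. Among them were CCND2 (1.96), CCND1 (-0.44, adjusted p = 0.010), CDKN1C (-0.65, adjusted p = 0.010) and CDKN1B (-0.30, adjusted p = 0.046). For the interaction of the drugs 2 of the 14 were lower, CCND2 (adjusted p = 0.037) and CDK6 (adjusted p = 0.046), and both calls were lost when most single samples were left out. Over all genes, 0.424% were lower for this term. CDK6, the D-type cyclin kinase, is named here because of its values, which were 0.29 in tretinoin (adjusted p = 0.045), -0.74 in vemurafenib and -0.97 in the combination relative to DMSO.

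The E2F target genes of the G1/S transition, many of which encode proteins of DNA replication and nucleotide synthesis, were mostly lower in the groups where the activators were lower. Of 32 such genes, 26 fell and 0 rose in vemurafenib relative to DMSO, with a median log2 fold change of -0.65, and 24 fell and 0 rose in the combination, with a median of -0.56. Over all genes the medians were 0.02 and 0.03, with 26.3% and 26.5% of genes lower and 26.4% and 27.1% higher. CDC25A, a phosphatase that activates CDK2, fell most, by 1.83 and 1.74, followed in the combination by UHRF1, a maintenance factor of DNA methylation, by 1.30 and 1.35. In tretinoin edgeR called 0 of the 32 relative to DMSO (5 at an unadjusted p under 0.05), where 3.48% of all genes rose and 2.2% fell. In the combination relative to vemurafenib it called 0 as well (5 at an unadjusted p under 0.05, median 0.08), where 2.27% rose and 2.2% fell. Of these 32 values 26 were positive. For the interaction of the drugs it called 0, with 26 positive values, 10 at an unadjusted p under 0.05 and a median of 0.09. Over all genes 0.382% were higher and 0.424% lower for this term, with a median of -0.01. These interaction values include tretinoin replicate 1, and how far they rest on it was not tested. E2F words were present in the promoter windows of 15 of the 28 G1/S genes with a window (53.6%), 2 of 7 MuvB and DREAM partner genes, 1 of 10 G2/M genes and 0 of 10 cyclin, kinase and inhibitor genes.

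Of 7 genes of the MuvB core and its partners, 3 fell in vemurafenib and 4 in the combination relative to DMSO, and 0 and 1 rose. Over all genes, 26.3% and 26.5% fell and 26.4% and 27.1% rose in these comparisons. MYBL2, which replaces the pocket proteins on MuvB in cycling cells, fell by 0.69 and 0.67. LIN9, a MuvB core subunit, fell by 0.52 and 0.47. LIN54, the DNA-binding subunit, rose by 0.22 in the combination (adjusted p = 0.025) and had 0.09 in vemurafenib (adjusted p = 0.35). The 14 mitotic genes that DREAM and MuvB complexes control moved in both directions. In vemurafenib 8 fell and 3 rose (median -0.21), and in the combination 7 fell and 2 rose (median -0.22), beside the same shares of all genes. CDC20 and AURKA, mitotic regulators, fell by 0.60 and 0.35 in vemurafenib, while KIF20A, a mitotic kinesin, and CCNB2, a cyclin B gene, rose by 0.42 and 0.27. Tretinoin lowered 5 of the 14, including AURKA (-0.34, adjusted p = 0.0034) and CDC20 (-0.27, adjusted p = 0.026), and raised 0. It lowered 2.2% of all genes and raised 3.48%.

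**Figure D4:**
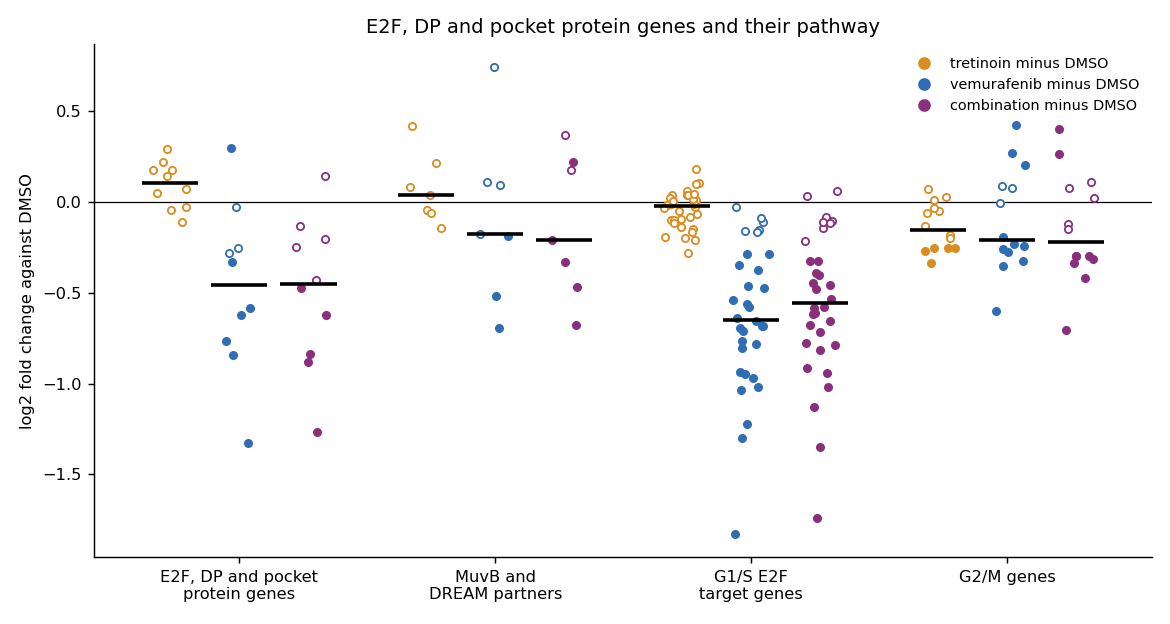
Log2 fold changes against DMSO (vertical axis) of the 10 E2F, DP and pocket protein genes, 7 MuvB and DREAM partners, 32 G1/S target genes and 14 G2/M genes, for each treatment. Points are genes, filled where the adjusted p was under 0.05, and black lines are list medians, which for the G1/S genes are -0.65 in vemurafenib, -0.56 in the combination and -0.02 in tretinoin.

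The genes whose log2 CPM followed E2F1 most closely over the 12 samples were CTPS1 (Pearson r = 0.997), NIBAN2 (0.997) and CDCA4 (0.996). For E2F3 they were MAT2A (0.996), SLC17A9 (0.995) and DHX33 (0.995), and for TFDP1 they were TFAP2C (0.998), PHLDA2 (0.997) and UAP1 (0.997). The 12 points form a group with vemurafenib and a group without it, so that any gene with a clear vemurafenib response in the same direction scores high. Of 15657 genes compared, 1957 had r above 0.9 with E2F1, 1924 with E2F3 and 1976 with TFDP1.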

How the data were processed

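The authors aligned paired-end reads of strand-specific poly(A) libraries to GRCh38.p10 with STAR 2.5.3a and deposited raw counts of fragments per GENCODE 27 gene, counted on the union of exons with strand ignored and not normalized. The files hold 58347 genes in each of 12 samples, with totals of 13510235 to 21534377. Group and replicate of each sample come from its labels. Here genes were filtered with filterByExpr (16740 left), normalized by TMM, and tested with edgeR 4.0.16 (R 4.3.3) by the quasi-likelihood test, with all 12 samples and a term per group. P-values were adjusted by Benjamini-Hochberg over all genes tested, with a threshold of 0.05. SEs were obtained as |log2 fold change|/√F. Normalized counts are scaled to the mean TMM library of 18070152. RPKM uses the TMM library and GENCODE 29 exon lengths.

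The genes and lists were chosen with earlier results of these data known. All 10 genes are named. From the other lists, the genes named are up to 2 of the largest rises and falls called in the combination relative to DMSO, the drug-response genes, and CDKN1A, CDKN1B, CCND1, CCNE2, E2F5, E2F6 and MYBL2. TFDP2, CDK6, CDKN2A, CDKN2C, CDKN2D, KRT5, PECAM1 and other markers outside this rule were named after their values were seen. The genes most like E2F1, E2F3 and TFDP1 were the 3 with the highest r.

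Alternatives were DESeq2 1.42.0 (with and without a beta prior), its size factors, total counts only, no low-count filter, a minimum of 10 counts per sample, fits of only the groups compared, a replicate block, and leaving out each sample. Shares were also computed from CPM. Counts of every replicate pair differed by more than sampling noise (chi-square per degree of freedom 2.59 to 22.4). Exon sequences were compared with blastn 2.17.0. The fits were tested on simulated data.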

Additional observations from a re-analysis of the deposited data

Results flagged for a closer look

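The interaction of the drugs was called for 2 genes that act on the pocket proteins, and for none of the E2F, DP and pocket protein genes. For CCND2 the effect of tretinoin was 1.96 ± 0.33 (log2, SE) without vemurafenib and 0.11 ± 0.21 with it, a difference of -1.85 ± 0.40 (adjusted p = 0.037, edgeR's quasi-likelihood test). It rests on few counts, 9 to 18 per sample in DMSO, 24 to 70 in tretinoin, 90 to 102 in vemurafenib and 101 to 126 in the combination. For CDK6 the effect of tretinoin was 0.29 ± 0.08 without vemurafenib and -0.23 ± 0.08 with it (adjusted p = 0.17), a difference of -0.53 ± 0.12 (adjusted p = 0.046), from 1533 to 3273 counts per sample. In tretinoin CDK6 had 4078, 3437 and 3197 normalized counts, the highest in replicate 1, the sample that stood apart from its group. Without that sample the differences were -0.42 (adjusted p = 0.015) for CDK6 and -2.09 (adjusted p = 7.6e-04) for CCND2. Over the 12 samples left out in turn, each call was kept in 2 of 12 fits, with values of -0.60 to -0.42 (adjusted p = 0.015 to 0.15) for CDK6 and -2.26 to -1.55 (adjusted p = 7.6e-04 to 0.11) for CCND2, and both were lost with a replicate block (adjusted p = 0.10 and 0.078). DESeq2 without shrinkage called both (adjusted p = 0.0069 for CDK6 and 0.0012 for CCND2).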

How the results depend on the processing

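Of the 60 fold changes of the 10 genes, 21 passed the test. None of these 21 turned sign under any alternative run, and 18 passed under all of them. Total counts as the only scaling moved the median of all genes by over 0.1, to 0.21 in vemurafenib and 0.19 in the combination relative to DMSO (split 6575 higher and 2628 lower, and 6242 and 2916, against 4411 and 4400, and 4537 and 4440). With it 1 of the 10 genes, RBL2, rose in the combination, and values that had not passed turned sign: E2F1 (0.027) and E2F4 (0.045) in tretinoin, RB1 in vemurafenib (0.17) and in the combination (0.029), RBL2 in the combination relative to tretinoin (0.056), and the interaction of E2F2 (-0.025) and TFDP1 (-0.071). With at least 10 counts, RB1 in vemurafenib was 0.015 and RBL2 in the combination relative to tretinoin 0.0062. With no low-count filter the interaction of E2F4 was 0.020 and 1 G1/S gene fell in tretinoin. The cause was not tested. Of all genes, DESeq2 called 635 lower in tretinoin (edgeR 368) and 126 higher and 150 lower for the interaction (edgeR 64 and 71).

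Leaving out 1 sample at a time, 0 to 1 of the 10 genes rose in vemurafenib, and 5 to 8 fell in the combination relative to DMSO, 8 without DMSO replicate 2. Values around 0 changed sign, over ranges of -0.092 to 0.011 for E2F1 and -0.015 to 0.11 for E2F3 in tretinoin, -0.080 to 0.028 for RB1 in vemurafenib, and -0.094 to 0.042 for RBL2 in the combination relative to tretinoin. In the combination relative to vemurafenib they were -0.066 to 0.011 for E2F3, -0.066 to 0.00690 for E2F4, -0.44 to 0.00018 for E2F8 and -0.039 to 0.13 for RBL1, and for the interaction -0.040 to 0.035 for E2F4, -0.17 to 0.025 for E2F7 and -0.26 to 0.025 for RBL1. The share of E2F1, E2F2 and E2F3 in tretinoin relative to DMSO ran from -1.15 to 0.019 points.

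Same-numbered samples did not deviate together (18 pairs, mean r = -0.031, highest 0.087), so no large effect shared by a replicate number was seen. This cannot tell whether same-numbered samples were handled together, which the labels do not state. A replicate block left the counts of genes called at 1 higher and 6 lower in vemurafenib, 5 lower in the combination relative to DMSO, 9 lower relative to tretinoin, 26 and 24 G1/S genes lower, and 0 elsewhere. At this depth E2F8, with 123 to 248 counts, had the widest intervals.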
